A study of Macaca fascicularis with 44 samples.

Results

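The posterior dentate gyrus (pDG) was set against the basolateral amygdala (BLA) in saline-treated macaques, with 6 pDG and 5 BLA libraries out of the 44 libraries in the study. The libraries were chosen by their labels, tissue and treatment, and 1 further BLA saline library, replicate 5, was left out because its expression stood apart from the rest of its group. The main counts and the named identifiers are also given with that library included. The study measured total RNA by sequencing in female cynomolgus macaques (Macaca fascicularis) given saline, the vehicle control, or betamethasone, a synthetic glucocorticoid. The same regions of betamethasone animals, 5 pDG and 4 BLA libraries, served to look at the region difference in libraries that none of the saline comparison had used. The anterior dentate gyrus (aDG) and the anterior cingulate cortex (ACC) are drawn on only to place the differences. Age, dose and animal of origin are not in the labels. Each p-value reflects only how much these libraries vary, part of which may be technical.

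The dentate gyrus is the entry station of the hippocampal formation. It is built mainly of densely packed granule neurons, which send mossy fibres to field CA3, and it is known for its part in separating similar memories. The basolateral amygdala is a cortex-like nuclear group of glutamatergic projection neurons and local inhibitory neurons, known for its part in emotional and threat learning. Both are dissected pieces of tissue that also hold glia and vessels. In such bulk RNA, fewer cells of a type and less RNA per cell cannot be told apart.

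The deposited tables name genes by Ensembl-style identifier, do not pair them with gene names, and 0 of 17293 identifiers matched the gene table used here. Genes are therefore given by identifier, with no name, position or function, and the tissue labels could not be checked against defining marker genes. For the same reason no pathway or cell type list is described. No more than 2 identifiers are named per direction.

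The pDG saline libraries held 30904257 to 61363984 gene reads, and the 5 BLA saline libraries 39585925 to 61901635. The 100 most abundant genes of each library took 16.6% ± 0.309 of its gene reads in pDG and 15.8% ± 0.355 in BLA (SD, n = 6 and 5). The two-sided exact permutation p was 0.0130, and the adjusted p 0.0779 over 6 measures. None of the 6 library measures passed after adjustment, and with BLA replicate 5 included the share of the 100 most abundant genes did (exact permutation adjusted p = 0.0390). The other measures were depth, unmapped reads, reads outside genes, ambiguous reads and the number of genes at 1 CPM or more (counts per 1000000 gene reads of a library), with exact permutation adjusted p from 0.286 to 0.775. In pDG replicate 6, 31.4% of reads were unmapped, against 11.9% to 14.7% in the other pDG libraries. The biological coefficient of variation, the spread between libraries beyond counting error, was 23.0% in pDG and 22.8% in BLA, and 33.2% in BLA with replicate 5.

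Roughly as many genes were higher in pDG as were lower. Of 14527 genes with enough reads to be tested, 2364 (16.3%) differed between pDG and BLA at an adjusted p under 0.05 (edgeR quasi-likelihood test, Benjamini-Hochberg adjustment over all genes tested). Of these, 1121 (7.72%) were higher in pDG and 1243 (8.56%) were lower. Most differences were modest, with a median of 1.67-fold among the genes higher in pDG and 1.88-fold among those lower. A difference of at least 2-fold was estimated for 956 of the genes that passed (6.58% of those tested), 399 higher in pDG (2.75%) and 557 lower (3.83%), and one of at least 16-fold for 59, 35 higher and 24 lower. Tested directly against a 2-fold minimum with edgeR's glmTreat, 369 genes passed, 163 higher and 206 lower. With BLA replicate 5 included that count was 241, 116 higher and 125 lower.

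**Figure D1:**
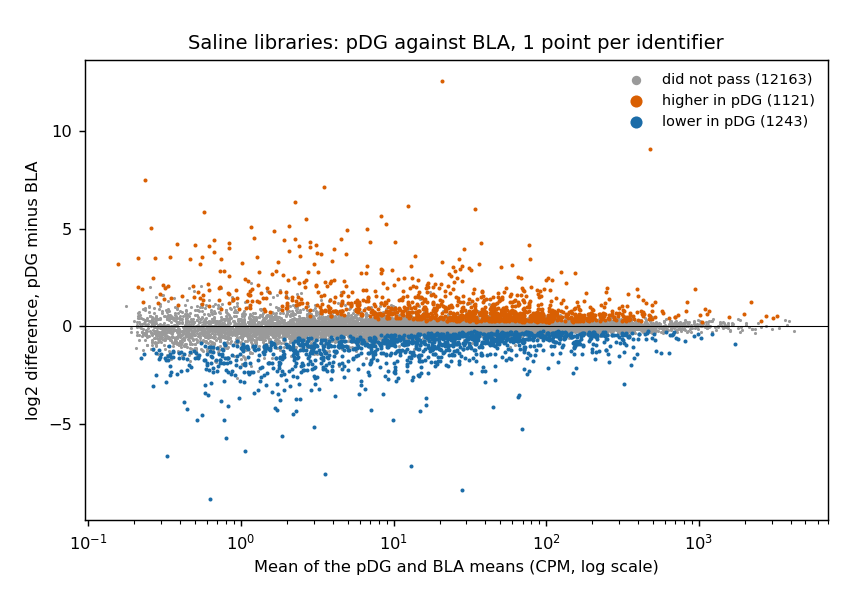
Each point is 1 of 14527 identifiers, with its mean level over both regions on a log axis (CPM) and its log2 difference, pDG minus BLA, in saline libraries. The 1121 orange identifiers were higher in pDG and the 1243 blue ones lower, and both spread over the whole range of levels.

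The groups were also compared without a model. For 1619 genes (11.1%) the 6 pDG and 5 BLA values did not overlap, with pDG above in 699 (4.81%) and below in 920 (6.33%). With BLA replicate 5 included this count was 1018, with pDG above in 470 and below in 548. Of the 1619 genes, 1521 were among the 2364 that passed the edgeR test.

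Among the 12163 genes that did not pass, the 95% interval of the difference lay wholly within 2-fold either way for 10646 (87.5%). For the other 1517 the interval reached past 2-fold in at least 1 direction, so a 2-fold difference is within what these libraries allow. With BLA replicate 5 included the interval lay within 2-fold for 83.7% of the genes that did not pass. Of the 12163 genes, 1538 had an unadjusted p under 0.05.

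Few genes passed fixed cut-offs for presence in a single region, and the counts depend on those cut-offs. Only 27 identifiers had at least 1 CPM in every pDG library and less than 1 CPM in every BLA library, and 48 had the reverse. With a ceiling of 0.1 CPM in the other region, 1 identifier was left for pDG and 3 for BLA. In betamethasone libraries, 22 of the 27 and 27 of the 48 met the same criterion. With the lower ceiling the 1 identifier for pDG met it again, and 0 of the 3 for BLA did. With BLA replicate 5 included, 20 identifiers met the first criterion for pDG and 23 for BLA, and 1 and 0 met it with the lower ceiling.

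Direction and size were counted by the level of the gene. The share of genes that passed was alike in 4 classes of equal size by mean level, at 17.1%, 15.9%, 15.4% and 16.7% from the lowest to the highest. In the lowest class, up to 6.28 CPM, 214 genes were higher in pDG and 407 lower. In the second class, up to 24.5 CPM, 254 were higher and 323 lower. In the third, up to 68.7 CPM, 308 were higher and 252 lower, and in the highest class 345 were higher and 261 lower. The share of passing genes that were higher in pDG therefore ran from 34.5% in the lowest class to 56.9% in the highest. With BLA replicate 5 included it ran from 36.1% to 58.8%. The change of direction with level was not tested. The size of the difference ran the other way, with a median of 2.86-fold in the lowest class and 1.46-fold in the highest, where the median standard error was 0.11 on the log2 scale, against 0.29 in the lowest. Among the 100 tested genes with the highest mean level over both regions 18 passed, 13 higher and 5 lower in pDG. Of the 18, 2 differed at least 2-fold. This is a single list, unlike the 100 most abundant genes of each library used for the library measures.

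**Figure D2:**
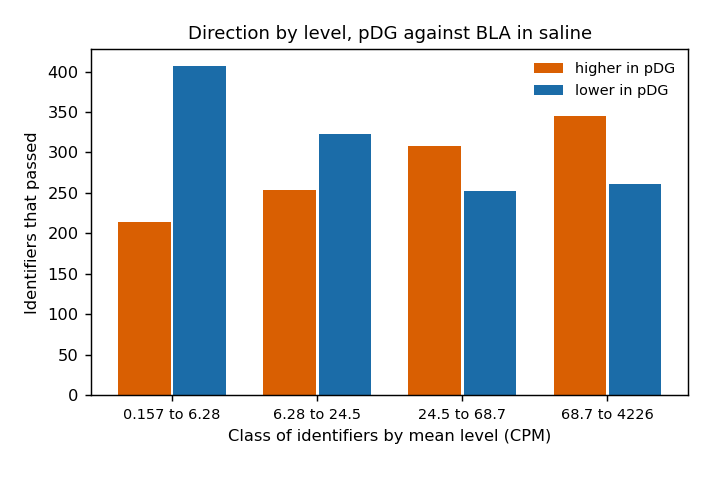
Bars count the identifiers that passed in each of 4 classes of equal size by mean level (CPM, x axis), those higher in pDG in orange and those lower in blue. Lower identifiers outnumber higher ones in the lowest class (407 against 214), and higher ones are more numerous in the highest (345 against 261).

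Together, the genes higher in pDG held 12.1% to 12.8% of gene reads in pDG saline libraries and 7.71% to 7.99% in BLA saline libraries. The genes lower in pDG held 5.14% to 5.38% in pDG and 8.57% to 9.26% in BLA. These shares describe the libraries that chose the genes. In betamethasone libraries, which did not choose them, the genes higher in pDG held 12.5% to 13.1% of gene reads in pDG and 8.10% to 8.30% in BLA. The genes lower in pDG held 5.18% to 5.27% in pDG and 8.77% to 8.94% in BLA, so the regions stayed apart on both measures in libraries of their own. BLA saline replicate 5 held 8.81% in the genes higher in pDG, above the other BLA libraries, and 9.04% in those lower.

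**Figure D3:**
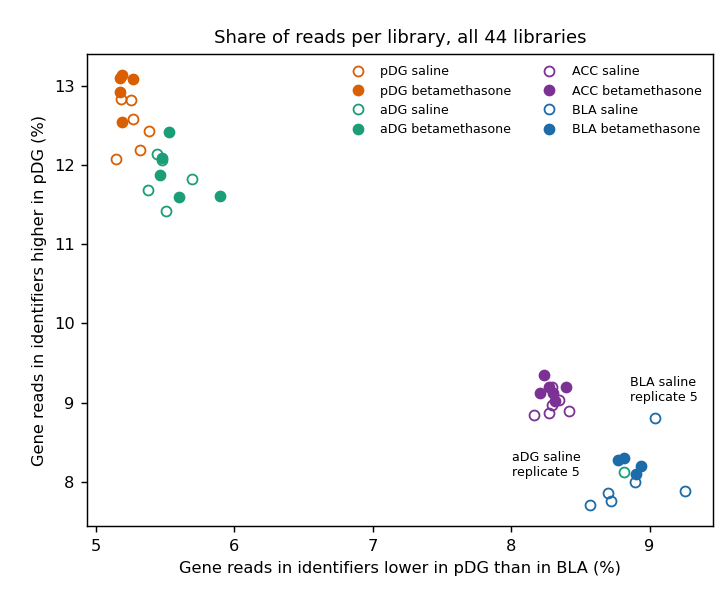
Each of the 44 libraries is placed by the percent of its gene reads in identifiers lower in pDG than in BLA (x axis) and in identifiers higher in pDG (y axis), open circles for saline and filled for betamethasone. The pDG libraries sit at 12.1% or more on the y axis and the BLA libraries at 8.81% or less, while aDG saline replicate 5 lies among the BLA libraries.

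Of the genes that passed, differed at least 2-fold and did not overlap between the groups, 307 were higher in pDG and 429 lower. From each set 2 identifiers are described, the one with the smallest p and the one with the highest mean level in the region where it was higher.

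ENSMFAG00000001073 had the smallest p of the 307 genes. Its level was 54.3, 69.3, 53.6, 83.0, 66.8 and 75.5 CPM in the 6 pDG libraries, against 1.45, 0.751, 1.05, 1.24 and 0.781 CPM in the 5 BLA libraries. Every pDG library lay far above every BLA library. The means were 67.1 ± 11.6 CPM in pDG and 1.05 ± 0.300 CPM in BLA (SD), and the log2 difference was 6.02 ± 0.21 (SE, edgeR adjusted p = 1.32e-09). BLA replicate 5 held 0.161 CPM, from 9 reads, below the other BLA libraries.

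ENSMFAG00000034246 had the highest mean level in pDG of the same 307 genes and ranked 40th of all tested genes by level there. It stood at 1769, 1330, 1635, 1644, 1088 and 1469 CPM in pDG, against 322, 422, 451, 371 and 459.8 CPM in BLA. The lowest pDG library held more than the highest of the 5 BLA libraries. The log2 difference was 1.91 ± 0.15 (SE, edgeR adjusted p = 1.35e-06), with means of 1489 ± 249 CPM in pDG and 405 ± 57.9 CPM in BLA (SD). BLA replicate 5 held 1259.6 CPM, inside the range of pDG.

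ENSMFAG00000032887 had the smallest p of all genes tested and was lower in pDG. It stood at 11.5, 10.7, 12.5, 9.40, 11.2 and 9.12 CPM in pDG, against 121.9, 115.7, 148.8, 104.2 and 121.4 CPM in BLA. Neither region varied by more than 1.5-fold between its lowest and highest library. The log2 difference was -3.48 ± 0.11 (SE, edgeR adjusted p = 3.13e-10), with means of 10.7 ± 1.27 CPM in pDG and 122 ± 16.4 CPM in BLA (SD). BLA replicate 5 held 9.44 CPM, again inside the range of pDG.

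ENSMFAG00000045560 had the highest mean level in BLA of the 429 genes and ranked 98th by level in BLA. It stood at 274, 435, 282, 426, 372 and 351 CPM in pDG, against 886, 943, 719.5, 1244 and 795 CPM in BLA. The log2 difference was -1.33 ± 0.16 (SE, edgeR adjusted p = 6.31e-05), with means of 356 ± 68.6 CPM in pDG and 918 ± 202 CPM in BLA (SD). The groups did not overlap, and BLA replicate 5, at 2255 CPM, lay above all of them.

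All 4 identifiers kept their direction and passed with BLA replicate 5 included. The log2 difference was then 6.25 for ENSMFAG00000001073, 1.48 for ENSMFAG00000034246, -3.24 for ENSMFAG00000032887 and -1.65 for ENSMFAG00000045560, with edgeR adjusted p from 3.06e-07 to 0.00611.

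**Figure D4:**
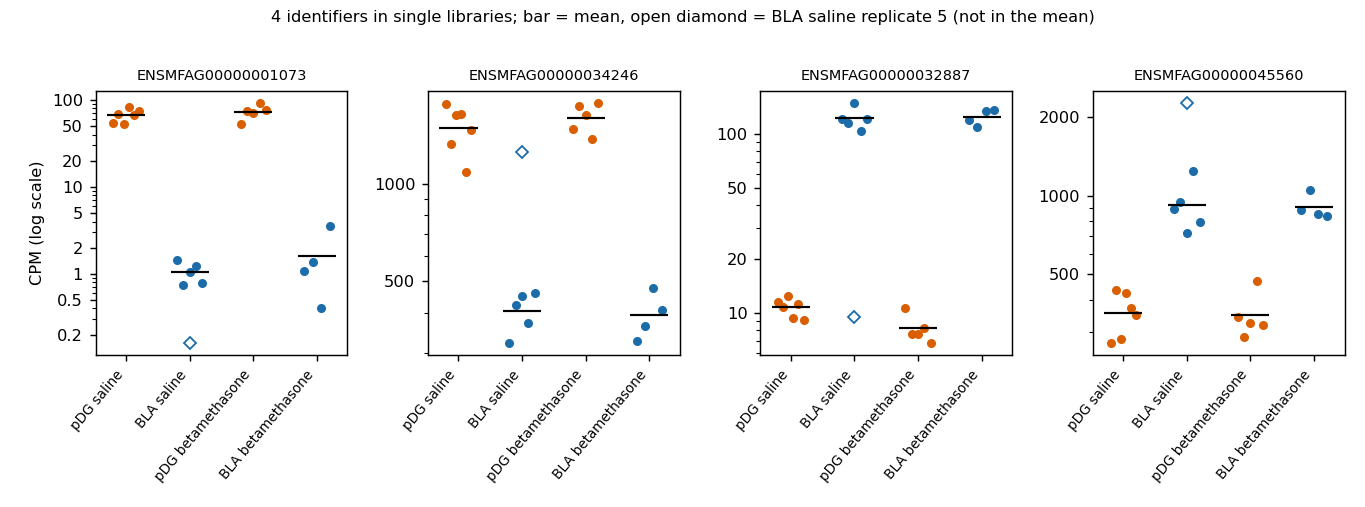
CPM on a log axis is shown for 4 identifiers in single libraries of pDG and BLA, saline on the left and betamethasone on the right of each panel, with bars at the mean. Filled points of the regions do not overlap in any panel, and the open diamond of BLA saline replicate 5 falls within the pDG range for ENSMFAG00000034246 and ENSMFAG00000032887.

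The same contrast in betamethasone libraries asked whether the region difference was also there in libraries with no share in the saline fit. In them 2826 of 14520 genes passed (19.5%), 1417 higher in pDG (9.76%) and 1409 lower (9.70%). Of the 2364 genes that passed in saline, 2351 were tested with betamethasone, and 2328 (99.0%) had the same direction. With BLA replicate 5 in the saline fit this share was 98.9%. Over all 14393 genes tested in both, 76.9% had the same direction. A total of 1775 genes passed the same way in both fits, which is 75.1% of the saline list and 62.8% of the betamethasone list, and 0 genes that passed in saline passed in the opposite direction.

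Repetition was counted by the size and direction of the saline difference. Of the genes that passed in saline with at least 2-fold, 785 of 943 (83.2%) passed the same way with betamethasone, and of those under 2-fold 990 of 1408 (70.3%). Among the genes higher in pDG, 904 of 1117 (80.9%) passed the same way and all 1117 kept their direction. Among those lower, 871 of 1234 (70.6%) passed and 1211 kept their direction. The 23 genes with the opposite direction were therefore all lower in pDG in saline, with a median log2 difference of -0.72 there and 0.08 with betamethasone, and 0 of them had an unadjusted edgeR p under 0.05 with betamethasone. The lowest of their edgeR adjusted p was 0.345, and DESeq2, run for both treatments, also called 0 genes in opposite directions. Gene by gene, the betamethasone log2 difference was at the median 100.4% of the saline one over the 2351 genes.

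**Figure D5:**
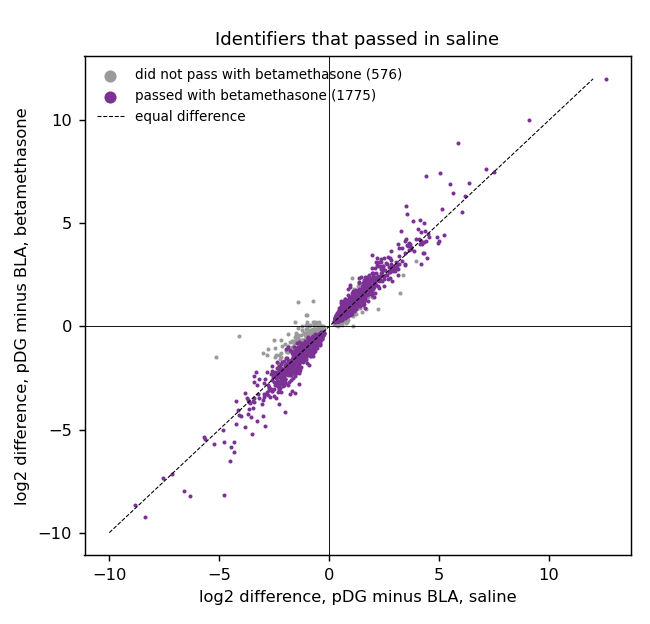
The log2 difference, pDG minus BLA, in saline (x axis) and betamethasone libraries (y axis) is plotted for the 2351 identifiers that passed in saline, with a dashed line at equal values. The 1775 purple identifiers passed in both, and the 23 identifiers with opposite signs all lie left of 0 on the x axis.

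The 4 identifiers kept their direction and passed in betamethasone libraries as well. ENSMFAG00000001073 stood at 52.6, 74.8, 70.5, 91.7 and 76.2 CPM in pDG betamethasone libraries, against 1.08, 1.37, 0.409 and 3.55 CPM in BLA betamethasone libraries, and its log2 difference was 5.53 ± 0.48 (SE, edgeR adjusted p = 1.25e-05). ENSMFAG00000034246 ranged from 1381 to 1778 CPM in pDG and from 327 to 476 CPM in BLA with betamethasone (log2 difference 2.02 ± 0.13, edgeR adjusted p = 1.88e-06). ENSMFAG00000032887 stood at 10.7, 7.60, 7.63, 8.27 and 6.79 CPM in pDG, against 120.1, 110.3, 134 and 136 CPM in BLA (log2 difference -3.94 ± 0.14, edgeR adjusted p = 3.39e-08). ENSMFAG00000045560 ranged from 289 to 472 CPM in pDG and from 838 to 1047 CPM in BLA (log2 difference -1.36 ± 0.14, edgeR adjusted p = 3.80e-05). For none of the 4, chosen for no overlap in saline, did the regions overlap under betamethasone. Of 14393 genes tested under both treatments, 2845 did not overlap under betamethasone. Of the 1608 among them that did not overlap in saline, 1249 again did not overlap, in the same direction.

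Whether the region difference itself changed with treatment was tested as an interaction over the 20 libraries of the 4 groups. In edgeR 0 of 14886 genes passed (0%), with a lowest adjusted p of 0.99996 and 325 genes (2.18%) at an unadjusted p under 0.05, and DESeq2 called 0. That fit took the libraries as independent. In the 9 pairs by title number, 5 saline and 4 betamethasone (18 libraries), with the pair as a replicate block, 0 of 14822 genes passed, with a lowest edgeR adjusted p of 0.623. There 1106 genes (7.46%) had an unadjusted p under 0.05, against 414 (2.79%) in the same libraries without the block. A count of 0 does not show that the differences were equal. Without the block, for 1674 of the 2364 genes that passed in saline (70.8%), the 95% interval of the change in the difference lay within 2-fold either way, and for the rest a change of that size was within the interval. With the block the interval lay within 2-fold for 1744 (73.8%). ENSMFAG00000032887 had a region difference that was 0.49 log2 units nearer to 0 in saline than with betamethasone (95% interval 0.14 to 0.83, edgeR adjusted p = 0.99996), and 0.47 with the block (0.12 to 0.81, edgeR adjusted p = 0.668). For ENSMFAG00000001073 the interval without the block was -0.47 to 1.50, for ENSMFAG00000034246 -0.49 to 0.33 and for ENSMFAG00000045560 -0.44 to 0.55.

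The other regions place these differences. Taking the 956 genes with at least 2-fold, the mean log2 level in aDG saline libraries, aDG replicate 5 left out, was nearer to pDG than to BLA for 388 of the 399 genes higher in pDG (97.2%) and for 521 of the 557 lower ones (93.5%). With aDG replicate 5, which lies with BLA in the read-share plot, the counts were 366 and 493. In ACC saline libraries, 174 of the 399 higher genes (43.6%) were nearer to pDG and 225 (56.4%) nearer to BLA. Of the 557 lower genes, 203 (36.4%) were nearer to pDG in ACC and 354 (63.6%) nearer to BLA. For many of these genes ACC lay outside both means. Of the 399, 78 were above both and 94 below both, and of the 557, 193 were above both and 70 below both. These counts describe levels and use the pDG and BLA libraries that chose the genes.

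The named identifiers showed both kinds of pattern. ENSMFAG00000001073 lay between 40.7 and 73.3 CPM in aDG saline libraries without replicate 5, which overlapped pDG, and between 2.97 and 5.57 CPM in ACC, above all 5 BLA libraries. ENSMFAG00000034246 lay between 656 and 1417 CPM in aDG, overlapping pDG, and between 298 and 459 CPM in ACC, overlapping BLA. ENSMFAG00000032887 was the reverse, with 93.0 to 118.4 CPM in ACC, overlapping BLA, and 11.5 to 18.1 CPM in aDG, overlapping pDG. ENSMFAG00000045560 was highest in BLA, since aDG held 355 to 658 CPM and ACC 315 to 498 CPM, and both overlapped pDG. In aDG replicate 5 the 4 identifiers stood at 1.34, 536, 142.9 and 729.6 CPM in the same order.

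BLA saline replicate 5 did not follow its region for many of these genes. Of the 557 genes lower in pDG by at least 2-fold, 267 (47.9%) were nearer to the pDG mean than to the mean of the other BLA libraries in it. Of the 399 higher genes, 106 (26.6%) were nearer to pDG. Many values of replicate 5 lay outside both means. Of the 557, 164 lay below both and 160 above both, and of the 399, 188 lay below both and 64 above both. Each of the 4 BLA betamethasone libraries, taken singly, was nearer to pDG for 51 to 112 of the 557 (9.16% to 20.1%) and for 11 to 24 of the 399 (2.76% to 6.02%). With replicate 5 in the fit, 807 genes passed as higher in pDG and 888 as lower, and 1638 of them were among the 2364.

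Most of the calls did not depend on any single library. With each of the 11 libraries left out in turn, 1901 to 2328 genes passed, and 70.1% of the 2364 passed in every one of the 11 fits, 805 of the 956 with at least 2-fold among them. The rest of the 2364 failed to pass in at least 1 fit, and 895 other genes passed in some fit. None of the 2364 changed sign in any of these fits. When libraries of both regions were paired by title number, as 5 pairs, and the pair was taken as a replicate block, 4214 genes passed, 2071 higher in pDG and 2143 lower, against 2328 in the same 10 libraries without the block. Of the 2364 genes, 2334 were among the 4214.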

How the data were processed

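The authors deposited, per the row names of the files, STAR gene tables of whole-number read counts, unstranded and for each strand. STAR is named in the submitters' processing notes. Neither its version nor the annotation is given in the sources used here. Each file carries the genome label MacFas 5-0. The second-strand column was used, since the opposite strand took 1.25% to 1.90% of reads. Repeated identifiers (139) were summed, and rows that name no gene stayed out. Multimapping reads were listed as 0, so how near-identical gene copies were counted is open. Unmapped reads were 11.9% to 31.4%, and reads outside genes 24.5% to 36.5% of mapped reads, in the 11 libraries.

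The test was that of edgeR 4.0.16, run in R 4.3.3 (TMM scaling, filterByExpr with a minimum count of 10 and a minimum total of 15, robust quasi-likelihood F tests, Benjamini-Hochberg adjustment, threshold 0.05), fitted on the 11 libraries. The code was tested on simulated data. SE is the log2 difference over the square root of F. CPM are counts per 1000000 gene reads, and mean levels and level classes are means of plain CPM. Levels were taken as log2(CPM + 0.1) only to place libraries nearer to pDG or BLA and to find genes where single libraries stood apart. Exact permutation tests of library measures were two-sided (SciPy 1.17.1). Alternatives were DESeq2 1.42.0, limma 3.58.1 voom, other scalings, filters and columns, a covariate, a joint fit, and each library left out.

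The comparison and its libraries were chosen with earlier results of these data known, including the removal of BLA saline replicate 5. Named identifiers are, in each direction, the one with the smallest p and the one with the highest mean CPM in the higher region, among genes that passed with at least 2-fold and no overlap. Marker lists by symbol were not used, as no identifier has a symbol. Replicates are numbered in accession order. Chi-square over degrees of freedom was 36.4 to 167 for the 25 pairs of libraries of one group without BLA saline replicate 5, and up to 454 with it, so each pair differed by more than counting noise. The labels name no animals, but title numbers of both regions run in parallel. They were 31 apart in saline (30 for the last pair), and 31 or 30 apart with betamethasone. Deviations from the group means of the 5 pairs correlated at 0.38 to 0.62, against -0.38 to 0.29 in the other 25 combinations, and each BLA library was closest to its own pair. The 4 betamethasone pairs correlated at 0.185 to 0.332, against -0.243 to 0.0386 in 12 other combinations. The pairs were set by title number. The correlations were a check on them, with a minimum of 0.1.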

Additional observations from a re-analysis of the deposited data

Results flagged for a closer look

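In pDG saline replicate 6, 31.4% of reads were unmapped, far from the other 5 pDG saline libraries (11.9% to 14.7%). This library still held 42006021 gene reads, and without it 2074 genes passed. It was the only value that stood apart in 32 groups of values examined, where chance gives about 1 in 20.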

How the results depend on the processing

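The number of genes that passed in saline (2364) stayed within 1.5 times under 22 of 23 alternatives, at most 2908 and fewest with BLA saline replicate 5 included (807 higher, 888 lower). The exception was the title-number set as replicate block (4214 genes, 5 pairs), which is used as a hint only, as the labels name no animals. DESeq2 called 2876 genes, limma voom 2325, and upper-quartile scaling gave 2365 with 1007 higher and 1358 lower. Leaving out 1 library gave 1901 to 2328 genes. The count with at least 2-fold (956) was 369 when a 2-fold minimum was tested, as that test asks more of each gene, 241 with BLA saline replicate 5 as well, and 805 to 1093 otherwise (877 to 961 with 1 library left out). The 1619 genes whose groups do not overlap became 1018 with BLA saline replicate 5 included, and 1727 to 2047 with 1 library fewer. These alternatives for overlap, for the repeat with betamethasone, for library measures, for pairing within betamethasone and in the interaction, and for the 2-fold test, intervals, presence and levels with BLA saline replicate 5 were chosen after seeing the data. In betamethasone libraries 2147 to 2909 genes passed with 1 library left out and 3457 in DESeq2, and 2270 passed with 4 pairs as a replicate block, against 2359 in the same 8 libraries without it. The 1775 saline calls that passed the same way there ranged from 1539 to 1832 with 1 library left out, and were 1332 with BLA saline replicate 5 and 2158 with DESeq2. The interaction gave 0 genes in edgeR, in DESeq2 and with BLA saline replicate 5 (325, 365 and 382 at an unadjusted p under 0.05), and 0 in 18 libraries with a replicate block and without it (1106 and 414). All 4 named identifiers passed with the same direction under each of 23 alternatives. They were chosen for passing without overlap in the main fit, and these refits share most of its libraries. Genes with few reads are limited by depth, with 1 read worth 0.0162 to 0.0324 CPM.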

Other observations

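Single libraries stood apart for small sets of genes. In pDG saline replicate 5, 30 genes with at least 1 CPM were 4-fold or more above the next highest pDG library, out of 41 such genes over all 6 pDG libraries. Their levels in that library ranged from 1.48 to 4425 CPM, with a median of 11.1 CPM. Together they held 0.544% of its gene reads, against at most 0.0924% in any other pDG saline library. Most of the 0.544% came from the identifier at 4425 CPM. Of these 30, 15 were among the genes that passed, 13 of them higher in pDG, against 16.3% passing over all genes tested. The fit includes the library that chose the 30, so these calls and their direction are partly built in. Without replicate 5, 28 of the 30 were still tested, and 11 of the 15 still passed. The median log2 difference of the 15 was 4.32 with replicate 5, and 2.30 without it over those still tested. In BLA saline replicate 2, 11 genes lay 4-fold or more below the next lowest BLA library, out of 18 over the 5 libraries, and 2 of the 11 were among the genes that passed. These sets were chosen after their values were seen, and no explanation for them was tested.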
